A study of Bos taurus with 16 samples.

Results

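Lactoferrin (LTF), its transferrin-family relative INHCA, elafin (PI3), secretory leukocyte peptidase inhibitor (SLPI) and the beta-defensins TAP, LAP and DEFB were followed in blood and uterus of dairy cows. The members were the probes that carry 1 of 9 given names in the scanner files, control spots left out. Of these names 8 had a probe, out of 26554 distinct names on the array, and DEFB1 had none under that name. The members came to 19 probes on 23 spots, out of 46615 probes on each array: 5 for LTF, 3 for PI3, 3 under the name SLPI, 2 under the gene identifier ENSBTAG00000004148, 1 under LOC525947 (INHCA in the RefSeq gene table), 2 for TAP, 1 for LAP and 2 for DEFB. They were picked because earlier results of these same arrays showed several of them higher in the endometrium of diseased cows, so their endometrial difference between diseased and healthy cows is given below as a description, with no test.

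The cows were multiparous Holstein-Friesians sampled between 45 and 55 days after calving, 4 with subclinical endometritis (SCE, an inflammation of the uterine lining found under the microscope in cows without clinical signs; cows 718, 833, 836 and 846) and 4 healthy (cows 841, 850, 877 and 883). Each cow gave 1 blood sample drawn into RNA-preserving tubes, called white blood cells (WBC) here, and 1 biopsy of the endometrium taken through the cervix, which makes 16 one-colour arrays in 4 groups of 4. By the study's methods more of the SCE than of the healthy cows were in the luteal phase. Stage was not assigned to single cows here, so stage and disease cannot be told apart. By quantitative PCR the study found that cycle phase significantly affected endometrial LTF and the mucus gene TFF3 in healthy cows. The part of cycle phase in the levels below was not tested.

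Lactoferrin is an iron-binding glycoprotein of milk, mucus and neutrophil granules that withholds iron from bacteria, and INHCA, an inhibitor of carbonic anhydrase, belongs to the same protein family. Elafin and SLPI are small secreted inhibitors of neutrophil serine proteases built on the whey acidic protein (WAP) fold. Beta-defensins are short cationic peptides with antimicrobial activity: TAP (tracheal antimicrobial peptide) and LAP (lingual antimicrobial peptide) were first found in cattle epithelia, while others are stored in bovine granulocytes. Lactoferrin, SLPI and several beta-defensins are known products of mucosal epithelia, the uterine lining among them.

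Between 64.7% and 79.8% of the spots of an array were well above background, and the number of arrays, not counting error, limits precision. The tissue labels matched the collagen gene COL1A2 and CSF3R, a receptor of granulocytes. COL1A2 averaged 17.28 in healthy endometrium and was well above background on no WBC array. CSF3R averaged 14.23 in healthy WBC and 6.37 in healthy endometrium (log2 normalized intensity, the scale of all levels below). Of 7 stromal markers, COL1A2 among them, 5 were higher and 2 lower in healthy endometrium than in healthy WBC. The lower ones were DCN (12.47 against 13.06) and VIM (17.47 against 17.98). The endometrium array of SCE cow 833 was the dimmest of its tissue, with a median background-subtracted spot signal of 79 against 248 to 316 on the other 7. Each tissue had a slide to itself, so slide and tissue cannot be told apart, whereas each of the 2 rows of a slide held 2 SCE and 2 healthy cows. In bulk tissue, fewer cells of a type and less RNA per cell cannot be told apart either. Each cow gave 1 array per tissue, so all errors are those between cows. The SE of a difference is the moderated one of limma, in which the spread of a probe is drawn toward that of all probes. It therefore differs from what the SDs of the groups compared would give, and is smaller for highly variable members such as PI3, LTF and LAP in endometrium.

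The sequences below are examples of what the array measured for LTF, INHCA, PI3, TAP and DEFB. The LTF probe lies on chr22:54345392-54345451 (plus strand), the INHCA probe on chr1:137970468-137970527 (minus), the PI3 probes on chr13:74293171-74293230 and chr13:74293233-74293292 (plus), the TAP probe on chr27:6127986-6128045 (minus) and the DEFB probe on chr27:7132787-7132846 (minus), in the coordinates of the scanner files, whose header names the cattle build Btau_3.1.
LTF probe A_73_P048381: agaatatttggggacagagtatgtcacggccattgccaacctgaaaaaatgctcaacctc
INHCA probe A_73_P031341: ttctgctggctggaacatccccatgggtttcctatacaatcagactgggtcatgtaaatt
PI3 probe A_73_P134721: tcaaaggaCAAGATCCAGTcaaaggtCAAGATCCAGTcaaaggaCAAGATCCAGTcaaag
PI3 probe A_73_P074601: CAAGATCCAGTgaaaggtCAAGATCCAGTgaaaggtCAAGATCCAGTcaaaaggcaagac
TAP probe A_73_P100626: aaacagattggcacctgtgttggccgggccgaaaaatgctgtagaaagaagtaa
DEFB probe A_73_P493088: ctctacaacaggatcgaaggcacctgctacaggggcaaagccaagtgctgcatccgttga

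The capitals in the PI3 probes mark CAAGATCCAGT, the longest run that occurs 3 times in each. It belongs to the repeated stretch of the elafin precursor, the part that transglutaminases link to other proteins. Searched as written, on the printed strand, the run was found at least 2 times in 3 of the 46615 probes (0.00644%), these PI3 probes and 1 probe of the transcript ENSBTAT00000056885, and at least once in 6 (0.0129%). On the opposite strand it was found in 2 (0.00429%). The printed PI3 probes start at bases 250 and 312 of the transcript, and the third PI3 probe, at base 649, holds no copy. The TAP run is cut after a closing taa of the frame that starts at its first base. LAP shared runs of up to 16 bases with the probe of EBD, 14 with DEFB5 and 13 with TAP, and TAP shared 16 with a DEFB7 probe, so signals of neighbouring defensin genes may be partly common to them; this was not tested.

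Lactoferrin is given on A_73_116655, its probe of highest mean over the 16 arrays. In healthy endometrium its level was 14.03 in cow 841, 13.32 in cow 850, 11.69 in cow 877 and 13.18 in cow 883. In the endometrium of SCE cows it was 16.73 in cow 718, 16.71 in cow 833, 17.58 in cow 836 and 13.10 in cow 846. The first 3 of these SCE cows lay above every healthy cow, while cow 846 lay among the healthy cows, so the groups overlapped. Healthy cows averaged 13.05 ± 0.98 (SD, n = 4) and SCE cows 16.03 ± 2.00 (SD, n = 4), and the means differed by 2.98 on the log2 scale (SE 0.95).

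INHCA, measured by 1 probe, placed the cows in a similar way. In endometrium, healthy cows 841, 850, 877 and 883 had 7.41, 6.81, 6.19 and 7.34, and SCE cows 718, 833, 836 and 846 had 9.49, 9.79, 10.03 and 7.23. Cow 846 again lay inside the healthy range and the other SCE cows above it. The log2 difference was 2.20 (SE 0.61). It was well above background on 3 of the 4 healthy endometrium arrays and on all 4 of SCE cows.

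**Figure D1:**
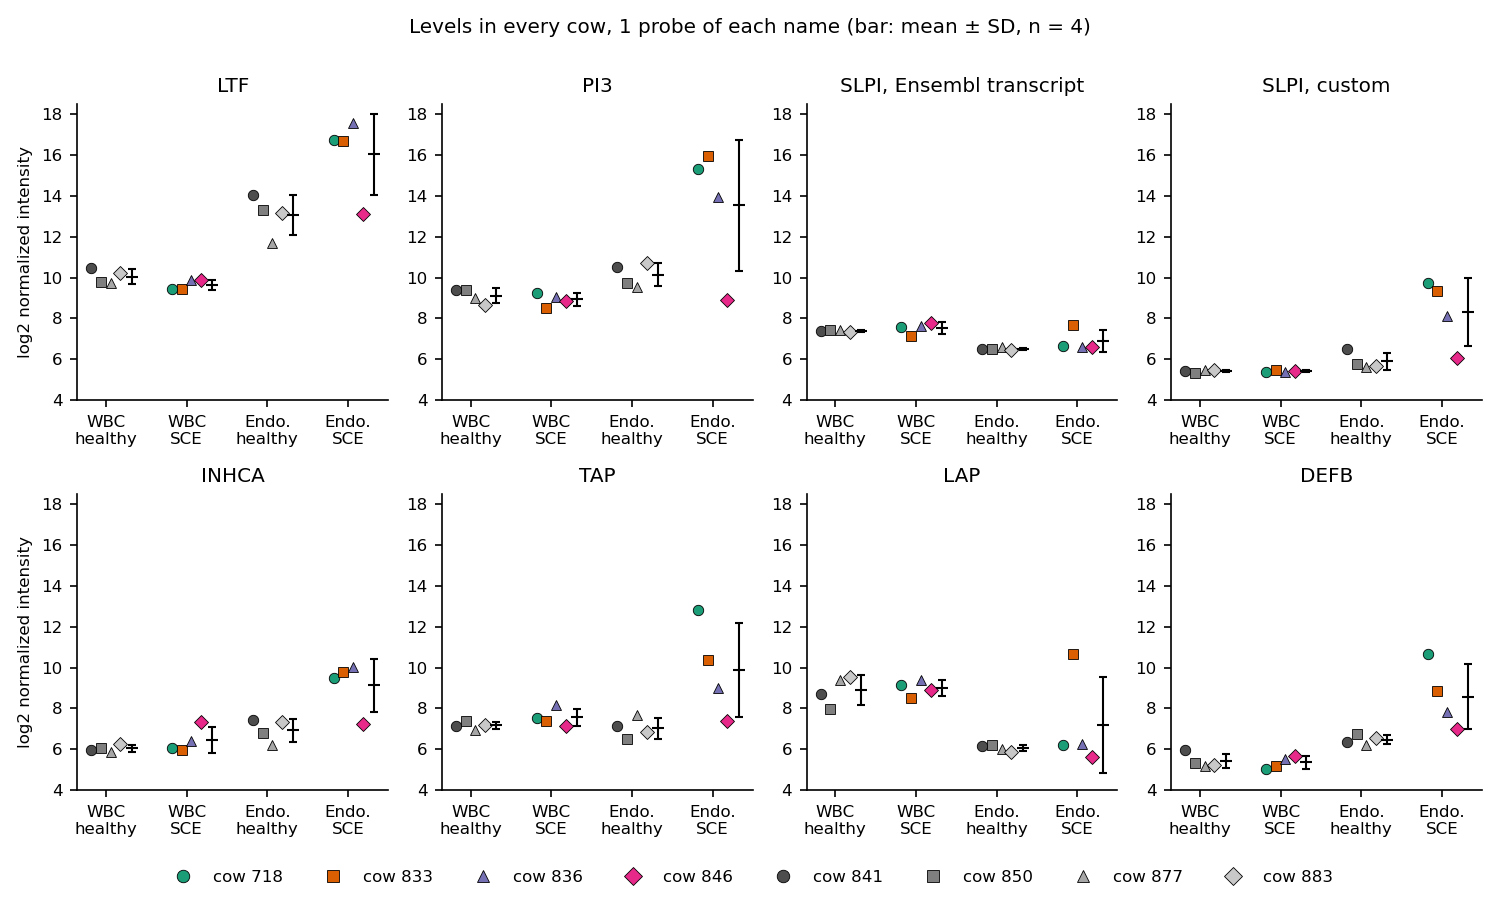
Log2 normalized intensity (vertical axes) of 1 probe for each name in every cow, in WBC and endometrium of healthy and SCE cows, with bars for the mean ± SD (n = 4). In SCE endometrium LTF lay at 16.71 or above in cows 718, 833 and 836 and at 13.10 in cow 846, and LAP lay at 10.65 in cow 833 alone.

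The LTF probes run along the transcript, from a start at base 316 to one at base 2349. The probes at bases 316 and 989 cover chr22:54317888-54320923 and chr22:54328739-54329225, spans far longer than a probe, so each match is split by an intron. The mean endometrial difference between SCE and healthy cows was 2.09 and 2.65 on these, and 2.98 to 3.25 on the other 3, on the log2 scale. All 5 had the 3 highest values in SCE cows 718, 833 and 836 and cow 846 as the seventh of 8. The probe at base 316 was well above background on 2 of 4 healthy and 3 of 4 SCE endometrium arrays, which limits how large a difference it can show.

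**Figure D2:**
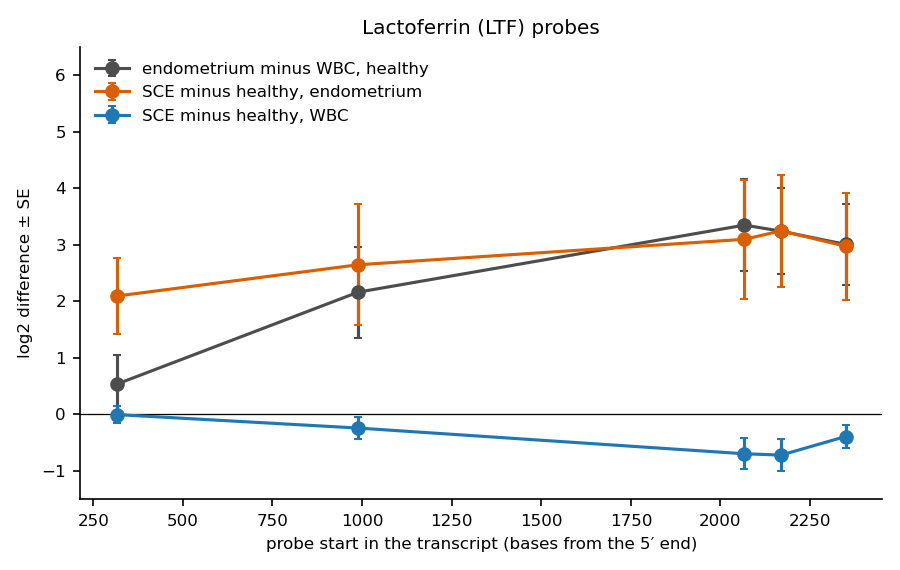
Log2 difference ± SE of the 5 LTF probes (vertical axis) against the base of the transcript where each starts (horizontal axis), for endometrium minus WBC in healthy cows, SCE minus healthy cows in endometrium, and SCE minus healthy cows in WBC. Both endometrial lines lie above 0 at every probe, and the WBC line reaches -0.72 at base 2169.

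Elafin had the widest endometrial differences of all members. On probe A_73_P035216 its level was 10.50, 9.75, 9.56 and 10.73 in healthy cows 841, 850, 877 and 883. In SCE cows 718, 833 and 836 it was 15.33, 15.95 and 13.96, and in cow 846 it was 8.89, below every healthy cow. The log2 difference of the means was 3.40 (SE 1.38), with 10.13 ± 0.57 (SD, n = 4) in healthy and 13.53 ± 3.20 (SD, n = 4) in SCE cows. It was 2.59 without cow 833 and 4.94 without cow 846. The repeat-bearing probes printed above gave 3.49 (SE 0.96) and 3.46 (SE 0.96), and on these cow 846 lay within the healthy range. So the 3 PI3 probes gave nearly the same mean difference and differed in where they placed cow 846.

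The SLPI probes fell into 2 kinds. Probe A_73_P048841, of the RefSeq SLPI transcript (chr13:74377097-74377156, minus strand), had endometrial levels of 6.36, 5.45, 5.88 and 5.79 in healthy cows 841, 850, 877 and 883. In SCE cows 718, 833, 836 and 846 it had 9.10, 8.71, 7.79 and 6.12. The first 3 SCE cows lay above all healthy cows, and the log2 difference was 2.06 (SE 0.59). Both custom probes named ENSBTAG00000004148 gave alike differences of 2.41 (SE 0.73) and 2.00 (SE 0.65). One of them has the same 60 bases as A_73_P048841, and over the 16 arrays these twin probes differed by a median of 0.23 and at most 0.50, which shows how far 2 probes of the same sequence can lie apart.

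The other SLPI probes belong to the transcript ENSBTAT00000019052, on the plus strand at another position (chr13:74356249-74357056, across an intron, and chr13:74357174-74357233). Their endometrial differences were 0.37 (SE 0.25) and 0.81 (SE 0.44). On A_73_P166057 the 4 healthy cows lay between 6.45 and 6.59, SCE cow 833 at 7.67 and the other SCE cows between 6.59 and 6.65, so that without cow 833 the difference was 0.10. On A_73_110814 cow 833 was again the highest, at 8.12, and healthy cow 883 at 6.44 lay above SCE cows 836 and 846. The name SLPI thus covered a transcript with 3 SCE cows far above the healthy range and another where only cow 833 lay far above it. On A_73_P166057 cows 718 and 846 also lay above that range, but narrowly, at 6.65 and 6.60 against a highest healthy value of 6.59. Which transcript carries the inhibitor was not tested.

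Among the beta-defensins, TAP on probe A_73_115413 had endometrial levels of 7.15, 6.48, 7.69 and 6.83 in healthy cows 841, 850, 877 and 883. In SCE cows it was 12.80 in cow 718, 10.35 in cow 833, 8.99 in cow 836 and 7.37 in cow 846. The SCE cows covered a range of over 5 log2 units, with cow 718 highest and cow 846 below healthy cow 877. The log2 difference was 2.84 (SE 1.0), and 2.21 (SE 0.85) on the probe printed above. On A_73_115413 it was 1.87 without cow 718 and 3.68 without cow 846. The printed TAP probe was well above background on 1 of 4 healthy and 3 of 4 SCE endometrium arrays, and on no WBC array.

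DEFB, a further beta-defensin, was ordered in the same way. On A_73_P044911 healthy cows 841, 850, 877 and 883 had 6.35, 6.76, 6.21 and 6.57, and SCE cows 718, 833, 836 and 846 had 10.66, 8.83, 7.84 and 6.98. Here every SCE cow lay above every healthy cow, with a log2 difference of 2.10 (SE 0.69), which was 1.41 without cow 718. On the printed DEFB probe no healthy endometrium array was well above background and 3 SCE arrays were, and its SCE level was at least 2.80-fold higher. The DEFB probes were the 2 of 19 member probes whose groups did not overlap in the endometrium, where 0.7% of all probes had every SCE cow higher and 0.928% had every SCE cow lower. Since the members were chosen with this contrast known, nothing is read from that count.

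LAP behaved differently. In endometrium, healthy cows 841, 850, 877 and 883 had 6.17, 6.19, 6.03 and 5.85, and SCE cows 718, 833, 836 and 846 had 6.19, 10.65, 6.27 and 5.61. Cow 833 alone stood apart, by more than 4 log2 units, and the mean difference of 1.12 (SE 1.0) became -0.03 without this cow. LAP was well above background on 1 healthy and 3 SCE endometrium arrays.

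Seen by cow, 17 of the 19 probes had their 3 highest endometrial values in SCE cows 718, 833 and 836, and the exceptions were the probes of ENSBTAT00000019052. The highest value was in cow 833 for 9 probes, in cow 718 for 7 and in cow 836 for 3. Against the mean of the healthy cows, cow 718 was higher by 0.13 to 5.76 over the 19 probes (median 3.68), cow 833 by 1.16 to 5.82 (median 3.31) and cow 836 by 0.08 to 4.65 (median 2.21). Cow 846 ranged from -1.24 to 0.50 (median 0.15), and on 14 probes it lay within the healthy range. Leaving out cow 846 raised the number of probes without overlap from 2 to 17. Leaving out cow 836 gave 3, leaving out healthy cow 841, 877 or 883 gave 5 each, and leaving out any other cow gave 2. Leaving out a cow can only reduce overlap, on any probe, and the share of all probes without overlap is not given for these smaller sets. The members were also chosen on this contrast, so nothing is read from these counts.

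**Figure D3:**
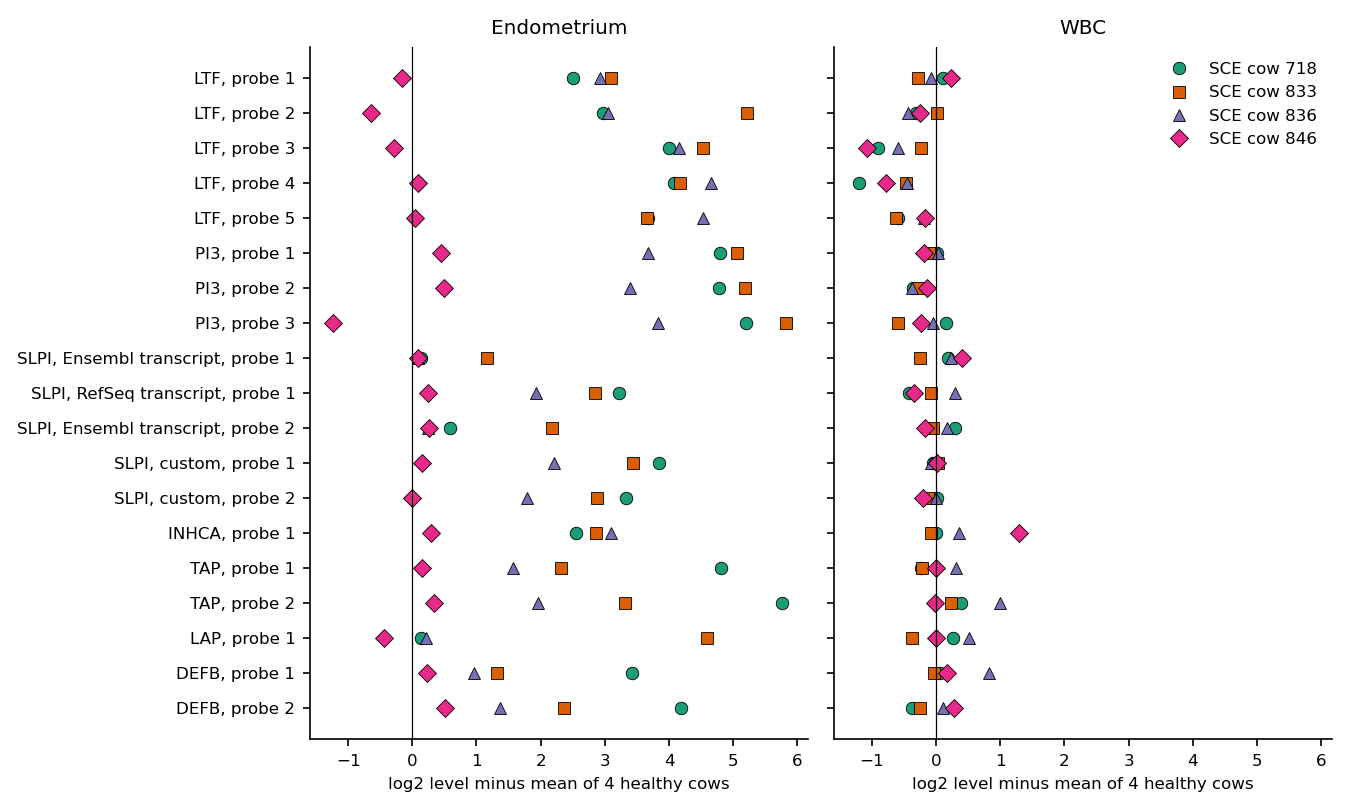
Log2 level of each SCE cow minus the mean of the 4 healthy cows of the same tissue (horizontal axes) for the 19 member probes, numbered within a name by their start in the transcript, in endometrium (left) and WBC (right). In endometrium cows 718, 833 and 836 lay at or above 0.08 on every probe and cow 846 between -1.24 and 0.50, whereas in WBC the values of all 4 cows lay between -1.19 and 1.30.

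In endometrium the mean of SCE cows exceeded that of healthy cows on all 19 probes. The differences ran from 0.37 to 3.49 on the log2 scale with a median of 2.21, where the median of all probes was near 0 (-0.00483) and 49.0% of them were higher. Under each of the 4 other ways of scaling the arrays the 19 means were again higher. Within row 1 of the slide, with 2 SCE and 2 healthy cows, 19 of 19 were higher with a median of 3.19, and within row 2, 18 of 19 with a median of 1.28. The dimmest array, that of cow 833, and cow 718 shared row 1, while cow 846 lay in row 2. The members were chosen on this contrast of these arrays, so the counts by scaling and by row describe it and do not test it. The 19 probes measure 8 names and are not independent.

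Where these genes are active without disease was asked by setting endometrium against WBC in healthy cows. The members were not chosen on this contrast, but its 4 healthy endometrium arrays also served in the one they were chosen on. A choice of wide SCE excess favours low healthy endometrium values, so the differences below, the lower ones above all, are not fully independent of the choice. Of the 19 probes, 4 rose and 2 fell in endometrium relative to WBC (limma treat at a 1.2-fold threshold, two-sided, Benjamini-Hochberg adjusted p at 0.05 over 46310 probes), where 19.7% of all probes rose and 26.9% fell. The members' share of 6 in 19 was no larger than the 46.6% of all probes called. All 4 probes that rose were LTF probes. Lactoferrin averaged 10.05 ± 0.35 (SD, n = 4) in healthy WBC and 13.05 ± 0.98 (SD, n = 4) in healthy endometrium on A_73_116655, a log2 difference of 3.01 (SE 0.72, limma adjusted p = 0.00319). In each of the 4 healthy cows endometrium exceeded WBC, by 1.95 to 3.57.

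The other LTF probes that rose differed by 3.24 (SE 0.76), 3.35 (SE 0.81) and 2.16 (SE 0.81), the last with limma adjusted p = 0.0448 and a level that was on no healthy WBC array well above background, so that endometrium was at least 4.26-fold higher. This last call, of A_73_P107516, was lost with normexp background correction (1.69, limma adjusted p = 0.115) and without any 1 of cows 718, 836, 841, 850, 877 and 883 (limma adjusted p up to 0.176). The 5′-most LTF probe differed by 0.53 and was not called.

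LAP and the SLPI probe A_73_P166057 were the 2 that fell. LAP averaged 8.90 ± 0.73 (SD, n = 4) in healthy WBC, where all 4 arrays were well above background, and 6.06 ± 0.16 (SD, n = 4) in healthy endometrium. The log2 difference of -2.84 (SE 0.78) had a limma adjusted p of 0.00854, and the 2 tissues did not overlap. SLPI probe A_73_P166057 averaged 7.39 in WBC and 6.51 in endometrium, a difference of -0.88 (SE 0.21, limma adjusted p = 0.0128). Neither call held with the arrays of each tissue normalized apart: 5 member probes rose and 0 fell, and the differences were -2.14 for LAP (limma adjusted p = 0.0524) and -0.20 for SLPI (limma adjusted p = 0.825). The median difference of all probes was -0.15 here and 0.36 under that scaling.

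The remaining 13 probes did not pass in healthy cows. Elafin differed by 0.78 to 1.03 between tissues, INHCA by 0.90 (SE 0.50), DEFB by 0.29 to 1.06, TAP by -0.13 to 0.14 and the RefSeq SLPI probe by 0.11 (SE 0.46). Most of these lie near the background in healthy tissue. The RefSeq SLPI probe was well above it on 1 of 4 healthy endometrium arrays and on no WBC array. A small difference was not detectable at this signal. PI3 on A_73_P035216 was well above background on all healthy arrays of both tissues, and the healthy tissues did not overlap on it. Its SE of 1.04 came from all 4 groups, and its SD was 3.20 in SCE against 0.57 in healthy endometrium. With the arrays of healthy cows alone more members were called, as given below.

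**Figure D4:**
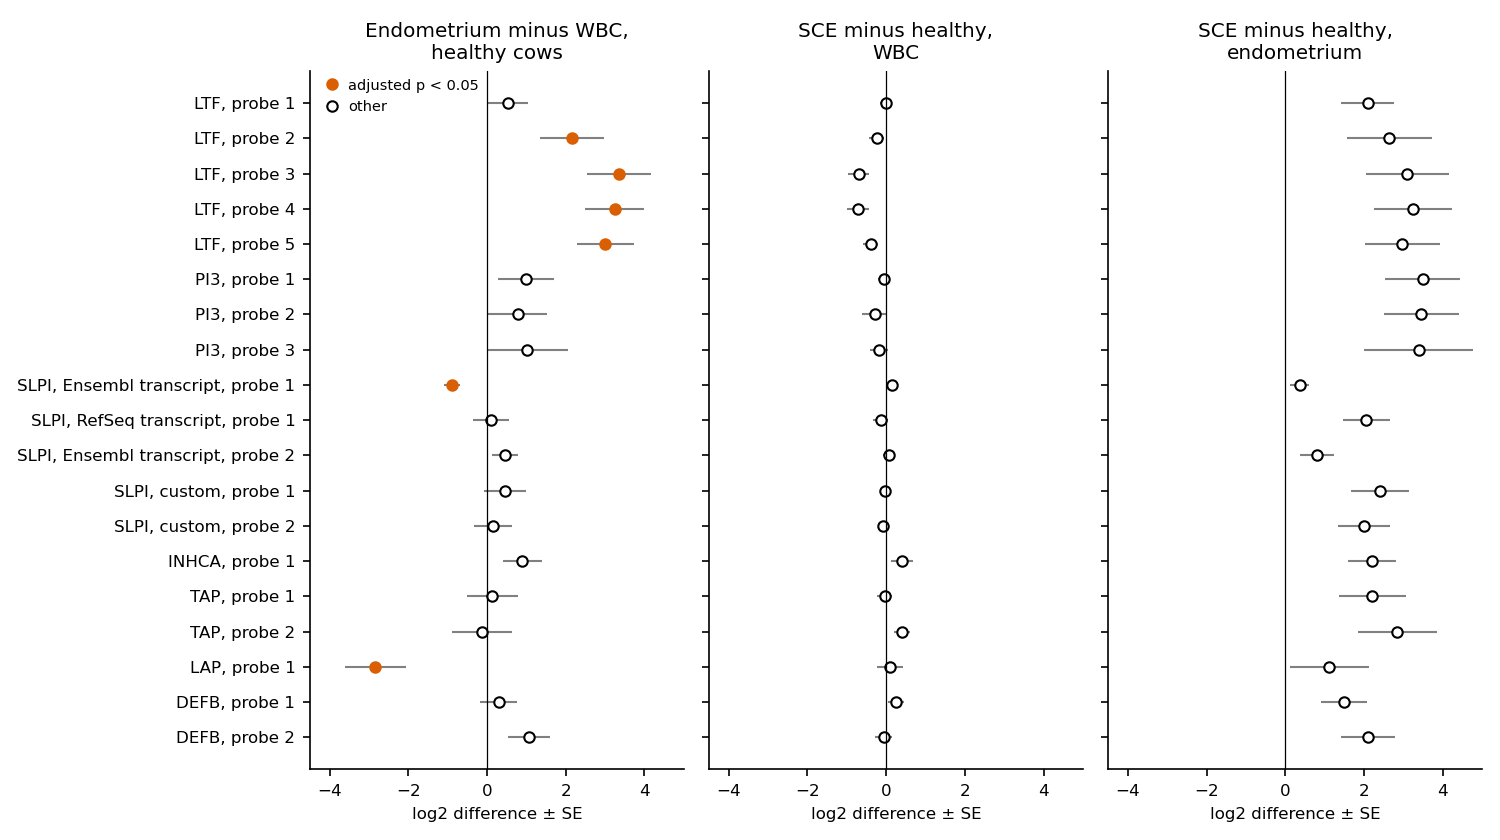
Log2 differences ± SE (horizontal axes) of the 19 member probes for endometrium minus WBC in healthy cows, SCE minus healthy cows in WBC, and SCE minus healthy cows in endometrium, filled where the adjusted p was under 0.05 (not shown for the last contrast, on which the members were chosen). In healthy cows 4 LTF probes lie to the right and LAP and 1 SLPI probe to the left, no probe is filled in WBC, and all 19 lie right of 0 in the last panel.

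In SCE cows 17 of the 19 probes passed the same test as higher in endometrium than in WBC, where 19.4% of all probes did. In the other direction 0 passed, where 26.1% of all probes did, 45.5% passing in either. With the processed signal scaled to the 75th percentile 2 passed as lower, LAP at -3.17 and SLPI probe A_73_P166057 at -1.15. The endometrial levels of these cows are part of what chose the members, so this count only describes where the RNA was. Within single cows, LTF on A_73_116655 was higher in endometrium than in blood by 7.27 in cow 718, 7.29 in cow 833, 7.72 in cow 836 and 3.22 in cow 846. For PI3 on A_73_P035216 the same differences were 6.06, 7.44, 4.89 and 0.02. TAP on A_73_115413 differed by 5.25, 2.95, 0.84 and 0.22 in these cows, and by -0.88 to 0.74 in healthy cows. LAP was lower in endometrium than in blood in all 4 healthy cows, by -3.68 to -1.76, and in SCE cows 718, 836 and 846, but higher by 2.13 in cow 833.

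Whether the disease was visible in blood was asked by comparing the WBC of SCE and healthy cows. No member probe passed (0 of 19, limma treat, and 0 at an unadjusted p of 0.05), where 0% of all probes passed after adjustment and 0.123% without it. On 0 of 19 did every SCE cow lie above or below every healthy cow, as on 0.581% and 0.72% of all probes. This does not show that the groups are alike: the SEs ran from 0.11 to 0.34 with 4 cows a group. The differences ran from -0.72 to 0.40 with a median of -0.06, and 6 of 19 were higher in SCE cows, or 10 of 19 with the processed signal scaled to the 75th percentile.

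For LTF, whose level in blood was also known when the members were chosen, the widest difference lay on A_73_P048381: healthy cows 841, 850, 877 and 883 had 7.90, 6.73, 6.89 and 7.63, and SCE cows 718, 833, 836 and 846 had 6.10, 6.83, 6.84 and 6.51. SCE cows 833 and 836 lay above healthy cow 850, so the groups overlapped, and 1 SCE array was well above background against 4 healthy ones. The log2 difference was -0.72 (SE 0.28). On this probe SCE cow 836, the highest of all cows in endometrium, was below 3 healthy cows in blood.

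The other members in blood stayed close together. PI3 on A_73_P035216 lay between 8.64 and 9.41 in healthy and between 8.52 and 9.26 in SCE cows. LAP lay between 7.95 and 9.53 in healthy and between 8.52 and 9.40 in SCE cows. TAP on A_73_115413 was 8.15 in SCE cow 836 and between 6.95 and 7.55 in the other 7 cows. INHCA was well above background in blood only in SCE cow 846, at 7.34, where the other 7 cows lay between 5.86 and 6.40. The RefSeq SLPI, custom SLPI and DEFB probes were well above background on no WBC array.

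The wider families gave a frame for the members. Of 10 further beta-defensin genes on the array, 7 fell in healthy endometrium relative to WBC and 0 rose. Of all probes 26.9% fell and 19.7% rose. The median log2 difference of the 10 genes was -1.16. The largest was that of EBD, enteric beta-defensin, at -6.43 (SE 0.87, limma adjusted p = 1.82e-05), and the smallest that of DEFB122A at -0.14. With the arrays of each tissue normalized apart, 7 of the 10 were lower and 3 fell. In endometrium all 10 had a higher mean in SCE cows, with a median of 0.24. None passed after adjustment in limma, and 0 had an unadjusted p under 0.05, where 0% and 0.451% of all probes did. DEFB7 had the widest difference, 1.87 (SE 1.15): healthy cows 841, 850, 877 and 883 had 8.58, 8.24, 7.07 and 6.57, and SCE cows 718, 833, 836 and 846 had 11.09, 12.11, 7.84 and 6.88. As for TAP and DEFB, cows 718 and 833 were the highest, but cows 836 and 846 overlapped with the healthy cows.

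Among 5 further WAP-domain genes that could be compared, 3 rose in healthy endometrium relative to WBC and 0 fell. Of all probes 19.7% rose and 26.9% fell. WFDC1 led the 5 genes, with a log2 difference of 4.81. In endometrium all 5 had a higher mean in SCE cows, and in limma 0 passed after adjustment and 1, WFDC2, without it. WFDC2, a secreted protein of glandular epithelium, differed most, by 2.06 (SE 0.73). Its levels in healthy cows 841, 850, 877 and 883 were 9.77, 9.13, 9.35 and 11.90, and those in SCE cows 718, 833, 836 and 846 were 12.50, 11.19, 13.53 and 11.16, so the groups overlapped through healthy cow 883.

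Of 9 other transferrin-family and iron genes, 6 had a higher endometrial mean in SCE cows (median 0.15), or 5 to 8 under the other ways of scaling. In limma 0 passed, with or without adjustment. Haptoglobin (HP), which binds free haemoglobin, differed most. It was well above background on no healthy endometrium array, at 5.58 to 5.80, and was 9.31 in SCE cow 718, 6.02 in cow 833, 5.89 in cow 836 and 6.55 in cow 846. Among 6 serine proteases of the kind elafin and SLPI inhibit, 4 were higher and 2 lower in SCE endometrium (median 0.11). With normexp correction or the processed signal 3 were higher and 3 lower. The proteases CTSG and KLK7 were well above background on no endometrium array. Among 17 receptors and signals known to induce these genes, 10 were higher and 7 lower (median 0.01). Under the other ways of scaling 9 to 11 of the 17 were higher. In both lists 0 passed in limma, with or without adjustment.

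Markers of other cells that a biopsy can hold were read beside the members. Of 20 neutrophil markers, 17 fell in healthy endometrium relative to WBC, where 26.9% of all probes fell. With the arrays of each tissue normalized apart, 15 of the markers fell. In endometrium 14 of the 20 had a higher mean in SCE cows (median 0.06), and in limma 0 passed after adjustment and 1, S100A8, without it. Their mean level was 7.51 to 7.86 in healthy and 7.55 to 8.24 in SCE endometrium, highest in cow 833, and CATHL1 and CATHL4 were well above background on no endometrium array. S100A8, of the neutrophil cytosol, differed most, by 1.60 (SE 0.61): it was 6.31 to 7.23 in healthy cows and 8.16, 10.45, 7.36 and 8.01 in SCE cows 718, 833, 836 and 846. The part of neutrophil content in the members' levels was not tested.

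Of 5 goblet cell and mucus genes, typical of the cervix, all had a higher mean in SCE endometrium (4 of 5 with the processed signal scaled to the 75th percentile), with a median difference of 1.79. Their mean level was 8.72 to 9.83 in healthy and 10.08 to 11.61 in SCE endometrium, highest in cow 833. TFF3, a trefoil peptide of mucus, was 9.80 to 12.35 in healthy cows and 12.98, 14.76, 13.13 and 12.73 in SCE cows 718, 833, 836 and 846. Cow 846 thus lay above the healthy cows for TFF3 and for this list, unlike for LTF and PI3. Of 8 squamous epithelium markers, typical of cervix and vagina, 7 were higher (median 0.21), with a mean level of 8.06 in cow 833 against 7.11 to 7.57 in the other 7 cows. All 7 stromal markers were lower (6 of 7 with the processed signal), with a median of -0.39 and the lowest mean level, 13.58, in cow 833. In these lists 0 genes passed in limma after adjustment, and 1, TFF3, without it. Their part in the members' levels was not tested. In healthy cows 7 of the 8 squamous markers were lower in endometrium than in WBC. With the arrays of each tissue normalized apart 4 of 8 were lower. TP63, a squamous marker, was well above background on no endometrium array. The mean squamous level was 7.84 to 8.16 in healthy WBC, so it does not measure squamous epithelium alone.

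**Figure D5:**
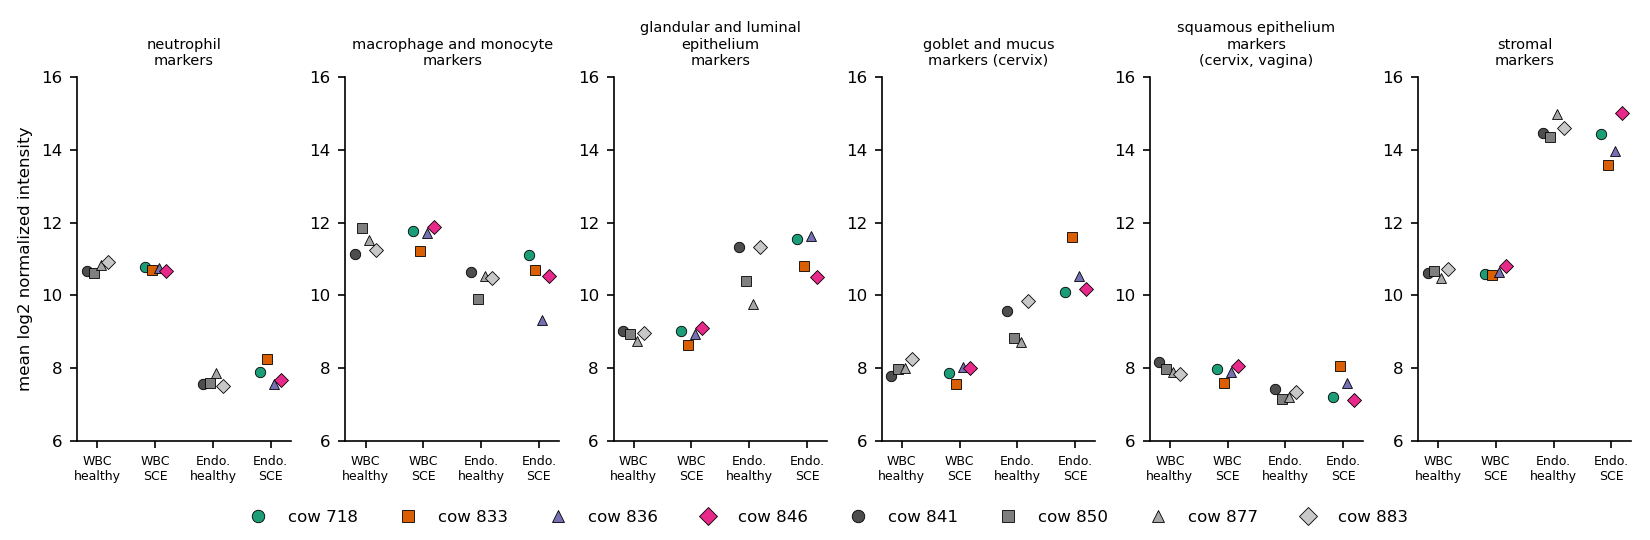
Mean log2 normalized intensity (vertical axes) of 6 marker lists in every cow, in WBC and endometrium of healthy and SCE cows. In SCE endometrium cow 833 had the highest neutrophil (8.24), goblet (11.61) and squamous (8.06) and the lowest stromal (13.58) levels.

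The glandular and luminal epithelium list had mean levels of 9.77 to 11.33 in healthy and 10.50 to 11.62 in SCE endometrium, and 10 of its 11 genes had a higher mean in SCE cows (median 0.34; 9 of 11 with the processed signal). Its highest gene by difference, KRT18, differed by 1.12. The macrophage and monocyte list had 4 of 8 genes higher, with a median near 0 (0.00437). In both lists 0 genes passed in limma, with or without adjustment. In healthy cows 5 of the 11 glandular and luminal genes were lower in endometrium than in WBC. With the arrays of each tissue normalized apart 3 of 11 were lower. The level of that list thus does not measure epithelium alone.

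The genes whose endometrial levels were most like those of a member were searched for over the 8 endometrium arrays among 22670 probes, as a description with no test. Closest to LTF were C2, an early component of the complement cascade (Pearson's r = 0.964), CD2AP (0.956) and ANXA4 (0.956). C2 (0.957) and ANXA4 (0.947) were also among the 3 closest to INHCA, with PTK2B (0.947). C2 was 6.20 to 6.76 in healthy cows and 7.61, 7.83, 8.65 and 6.66 in SCE cows 718, 833, 836 and 846, with cow 836 highest, as for INHCA and for LTF on A_73_116655.

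Closest to PI3 were PLEKHF2 (0.967), DEDD2 (0.965) and MAF1 (0.959), whose own differences between SCE and healthy cows were small, from 0.15 to 0.30. Closest to TAP were TCRA (0.976), BCL2A1 (0.959) and VPREB3 (0.954). For SLPI probe A_73_P166057, AQP3 (0.996), a water and glycerol channel of stratified epithelia, F8 (0.994) and LCK (0.994) came out highest. AQP3 was 12.86 in cow 833 and 7.47 to 8.66 in the other 7 cows, so this likeness rests on 1 cow. The correlations share their 8 arrays and were picked as the highest of many.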

How the data were processed

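Total RNA of WBC and endometrium of 8 cows was hybridized to 16 one-colour Agilent arrays. The authors deposited the spot intensities of Agilent Feature Extraction 10.10.1.1, not normalized, and a table of quantile-normalized intensities. Median signals without background correction were used. Control spots (1319) and outlier spots (190 to 465 per array) were left out, log2 values were quantile-normalized over the 16 arrays and spots of a probe averaged. No array had more than 1 saturated spot. A RefSeq gene table (assembly ARS-UCD2.0) named 26517 probes by accession, 6173 by symbol and 160 by older symbols, and 13765 kept the file's name. No per-sample column was left unmapped.

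Groups came from the labels. Tests used limma 3.58.1 in R 4.3.3 (treat, 1.2-fold, Benjamini-Hochberg at 0.05), with all 4 groups in 1 model between tissues and 8 arrays within a tissue, and were tested on simulated data. Tables and plots used data.table (version 1.17.8), statmod 1.5.0, Python 3.11.15, numpy 2.4.6, pandas 2.3.3 and matplotlib 3.10.9. Members, lists and tests were chosen with earlier results of these data known. Named were all member probes, with values per cow for the probe of highest mean (other probes were added after their values were seen), the 3 genes most like a member, and the extremes of each list. A gene outside the members is its probe of highest mean. "At least" folds set the dim group at the higher of its signal and the lowest signal well above background. WBC and endometrium came from the same cows, so the cow was a block in an alternative fit. The correlation of a cow's deviations in both tissues was -0.33 to 0.14 over 23893 probes.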

Additional observations from a re-analysis of the deposited data

Results flagged for a closer look

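Values of 1 cow that stood far from the other 3 of its group were searched for in 32 groups of 4 cows (8 probes in 4 groups), by the gap to the nearest cow over the range of the group (Dixon's test). Chance alone marks about 1 in 20 groups. SLPI probe A_73_P166057 was 7.67 in the endometrium of SCE cow 833, against 6.59 to 6.65 in the other SCE cows. LAP was 10.65 in the endometrium of the same cow, against 5.61 to 6.27. The custom SLPI probe was 6.48 in the endometrium of healthy cow 841, against 5.63 to 5.75 in the other healthy cows. DEFB on A_73_P044911 was 5.94 in the WBC of healthy cow 841, where the other healthy cows lay at 5.30 or below, and no WBC array had this probe well above background. The array of cow 833 was also the dimmest of its tissue, and the part of this in the first 2 values was not tested.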

How the results depend on the processing

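In healthy cows the count of members called between tissues was 6 of 19 and stayed between 4 and 7 as each cow was left out. It was 2 of 8 with the probes of a name averaged, 9 with the 8 arrays of healthy cows alone, 8 with the processed signal and 5 with normexp correction, slide row as a block or normalization within each tissue. With cow as a replicate block it was 6, and 17 in SCE cows, as in the unpaired fit, so the pairing changed no count. In SCE cows 17 of 19 became 7 of 8 with probes averaged, 13 with the arrays of SCE cows alone, and 15 to 17 as each cow was left out. Among probes well above background on every WBC array or on every endometrium array it was 10 of 12. Several of these, such as LTF on A_73_P107516 and DEFB on A_73_P044911, passed that filter only through SCE endometrium, where they were high. The endometrial levels of SCE cows helped choose the members, so these counts describe them and do not test them. In WBC 0 passed under every alternative run.

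The 2 probes without overlap in endometrium became 3 with normexp correction and 2 to 17 as each cow was left out (17 without cow 846, and 5 without cow 841, 877 or 883). Among probes well above background on every array of either endometrium group it was 1 of 11. That probe, DEFB on A_73_P044911, passed the filter only through SCE endometrium, where it was high. The members were chosen on this contrast and the share of all probes is not given for these settings, so nothing is read from these counts. Of the single differences, that of TAP between tissues in healthy cows, -0.13, turned to 0.60 with normalization within each tissue and 0.61 with slide row as a block. That of SLPI probe A_73_P166057 in SCE cows, -0.66, turned to 0.082 within each tissue, and that of the custom SLPI probe in WBC, -0.02, turned to 0.047 with the processed signal. The LAP and SLPI calls in healthy cows were lost within each tissue and with slide row as a block, LAP also without cow 883 and SLPI without cow 850. The call of LTF probe A_73_P107516 was lost with normexp correction and without any 1 of 6 cows, as given above. In SCE cows LAP and SLPI passed as lower without cow 833, at -3.13 and -1.05, and with the processed signal, at -3.17 and -1.15, and SLPI also with no fold threshold, at -0.66. The causes were not tested.

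Levels near background limit DEFB, the RefSeq and custom SLPI probes, the printed TAP probe, INHCA and the 5′-most LTF probe, mostly in WBC and healthy endometrium. The number of 4 cows a group limits every comparison.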
